A study of Mus musculus with 2 samples.

Results

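The genes described here are 7 mouse Fc receptor genes, chosen by symbol: Fcgr1, Fcgr2b, Fcgr3, Fcgr4, Fcer1g, Fcer2a and Fcmr. All 7 had a row in both libraries, out of 32285 genes. They were followed in single-cell RNA profiles of immune cells from pancreatic islets, read by 3' tags on the 10x Genomics platform, with 1 library per genotype. One library came from 12-week-old female NOD mice, an inbred strain that develops autoimmune diabetes, and is called WT NOD. The other came from 12-week-old female mice labelled NOD.Cxcl16-/-, that is, NOD mice lacking the gene of the chemokine CXCL16. In both, islets were picked by hand, dispersed without enzymes, and live CD45+ CD31- cells were sorted. The labels do not say how many mice were pooled, so neither animal nor library replicates exist and no test between the genotypes was possible.

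Fc receptors bind the constant part of antibodies. Fcgr1, Fcgr3 and Fcgr4 encode the activating IgG receptors CD64, CD16 and CD16-2, which signal through the ITAM of the FcR gamma chain, the product of Fcer1g. Fcgr2b encodes CD32B, which carries an ITIM of its own and inhibits. Fcer2a encodes the low-affinity IgE receptor CD23 of mature B cells, and Fcmr the IgM receptor. In the islet of the NOD mouse, macrophages are the resident myeloid cells, and lymphocytes enter as disease develops.

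The genes lie in 4 places of the GRCm38 assembly. Fcgr2b (ENSMUSG00000026656, chr1:170958617-170976547, minus strand), Fcgr4 (ENSMUSG00000059089, chr1:171018920-171029761, plus strand), Fcgr3 (ENSMUSG00000059498, chr1:171051174-171064935, minus strand) and Fcer1g (ENSMUSG00000058715, chr1:171229572-171234365, minus strand) are neighbours on chromosome 1. Fcmr (ENSMUSG00000042474, chr1:130865669-130880791, plus strand) is on the same chromosome, apart from these 4. Fcgr1 (ENSMUSG00000015947, chr3:96282909-96293969, minus strand) is on chromosome 3 and Fcer2a (ENSMUSG00000005540, chr8:3681737-3694175, minus strand) on chromosome 8. Gm38204 is annotated antisense to Fcgr2b.

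The 250 bases before the start site are shown for 4 members, because these 4 separated the gates described below: Fcgr1 and Fcgr4 as receptors of macrophages, Fcer1g as the chain that NK cells shared with myeloid cells, and Fcer2a as a gene of B cells. The sequences are from RefSeq (GRCm38.p6), 5' to 3' on the strand of the gene, at chr3:96293970-96294219, chr1:171018676-171018925, chr1:171234350-171234599 and chr8:3694175-3694424. Capitals mark matches to GAGGAA, the core bound by the myeloid factor PU.1, or to TTCNNNGAA, the element bound by STAT dimers, each searched on both strands.
Fcgr1: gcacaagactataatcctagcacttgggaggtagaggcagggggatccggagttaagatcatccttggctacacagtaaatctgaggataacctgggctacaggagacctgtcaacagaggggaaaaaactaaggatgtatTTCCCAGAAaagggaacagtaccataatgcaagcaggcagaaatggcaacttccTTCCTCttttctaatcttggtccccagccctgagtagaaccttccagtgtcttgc
Fcgr4: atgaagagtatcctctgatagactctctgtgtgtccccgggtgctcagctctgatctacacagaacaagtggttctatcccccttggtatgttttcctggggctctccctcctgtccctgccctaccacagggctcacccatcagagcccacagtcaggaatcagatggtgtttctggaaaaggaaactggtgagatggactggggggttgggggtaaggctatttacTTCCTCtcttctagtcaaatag
Fcer1g: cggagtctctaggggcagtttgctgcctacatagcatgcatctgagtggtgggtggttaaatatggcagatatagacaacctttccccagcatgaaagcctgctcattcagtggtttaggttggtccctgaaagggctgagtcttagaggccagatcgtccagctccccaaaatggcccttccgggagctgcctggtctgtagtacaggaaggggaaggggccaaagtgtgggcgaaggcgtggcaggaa
Fcer2a: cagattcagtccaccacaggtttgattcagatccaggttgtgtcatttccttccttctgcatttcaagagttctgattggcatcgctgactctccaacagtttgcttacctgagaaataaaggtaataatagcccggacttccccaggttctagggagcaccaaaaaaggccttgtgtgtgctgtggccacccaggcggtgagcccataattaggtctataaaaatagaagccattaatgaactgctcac
The Fcgr1 window held 1 match to TTCNNNGAA, starting 109 bases before the start site, and 1 to GAGGAA, on the opposite strand, at 55 bases. The Fcgr4 window held 1 match to GAGGAA, at 22 bases. Neither motif was found in the Fcer1g and Fcer2a windows. Of the windows not shown, those of Fcgr3 and the B-cell gene Fcmr held 1 match to GAGGAA each, at 6 and 36 bases. The Fcgr2b window held neither motif, so the matches do not separate myeloid from B-cell members. Of 32851 RefSeq windows of 250 bases, 23.3% held GAGGAA and 7.02% TTCNNNGAA, so a match is a description of the sequence only.

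The WT NOD library held 13859 barcodes and 93553185 unique molecular identifiers (UMIs), and the other 10554 barcodes and 98681133 UMIs. After removal of barcodes with under 500 genes, high mitochondrial RNA or a high doublet score, 10721 and 9326 cells remained, with median UMIs of 3972 and 4935. The libraries shared 45 barcode sequences. Cells were assigned to gates by marker genes, none of them an Fc receptor gene, and levels are given in CPM, a gene's UMIs scaled to a fixed total of UMIs of the gate, with exact Poisson 95% intervals. These cover counting error only, not the spread between cells or mice. A gate is a range of marker UMIs, not a cell type: 63 of 851 and 48 of 1192 myeloid-gated cells, and 33 of 115 and 15 of 99 NK-gated cells, were within 3 to 5 marker UMIs of their own lineage. In the library labelled NOD.Cxcl16-/-, Cxcl16 itself read 410 CPM in macrophage-gated cells (268 of 310 cells with a UMI), against 628 CPM in WT NOD. This goes against the label, so every direction below is between 2 libraries named by their labels and not between known genotypes. A 3' tag outside a deleted part would not show a deletion, and the deleted part is not given in the labels.

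The 4 IgG receptor genes were transcripts of macrophage- and monocyte-gated cells, and Fcgr2b was also one of B-gated cells. Of the Fcgr1 UMIs in kept cells, 64.2% in WT NOD and 65.8% in the library labelled NOD.Cxcl16-/- were in myeloid-gated cells, and 0.267% and 0.314% in B-gated cells. For Fcgr2b, B-gated cells held the larger share, 53.6% and 42.5%, and myeloid-gated cells 21.8% and 25.8%. Between 22.6% and 46.2% of the UMIs of the 4 genes were in cells that met the marker rules of no gate. For the B and myeloid gates the rule was at least 3 own marker UMIs and 80% of all lineage-marker UMIs.

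**Figure D1:**
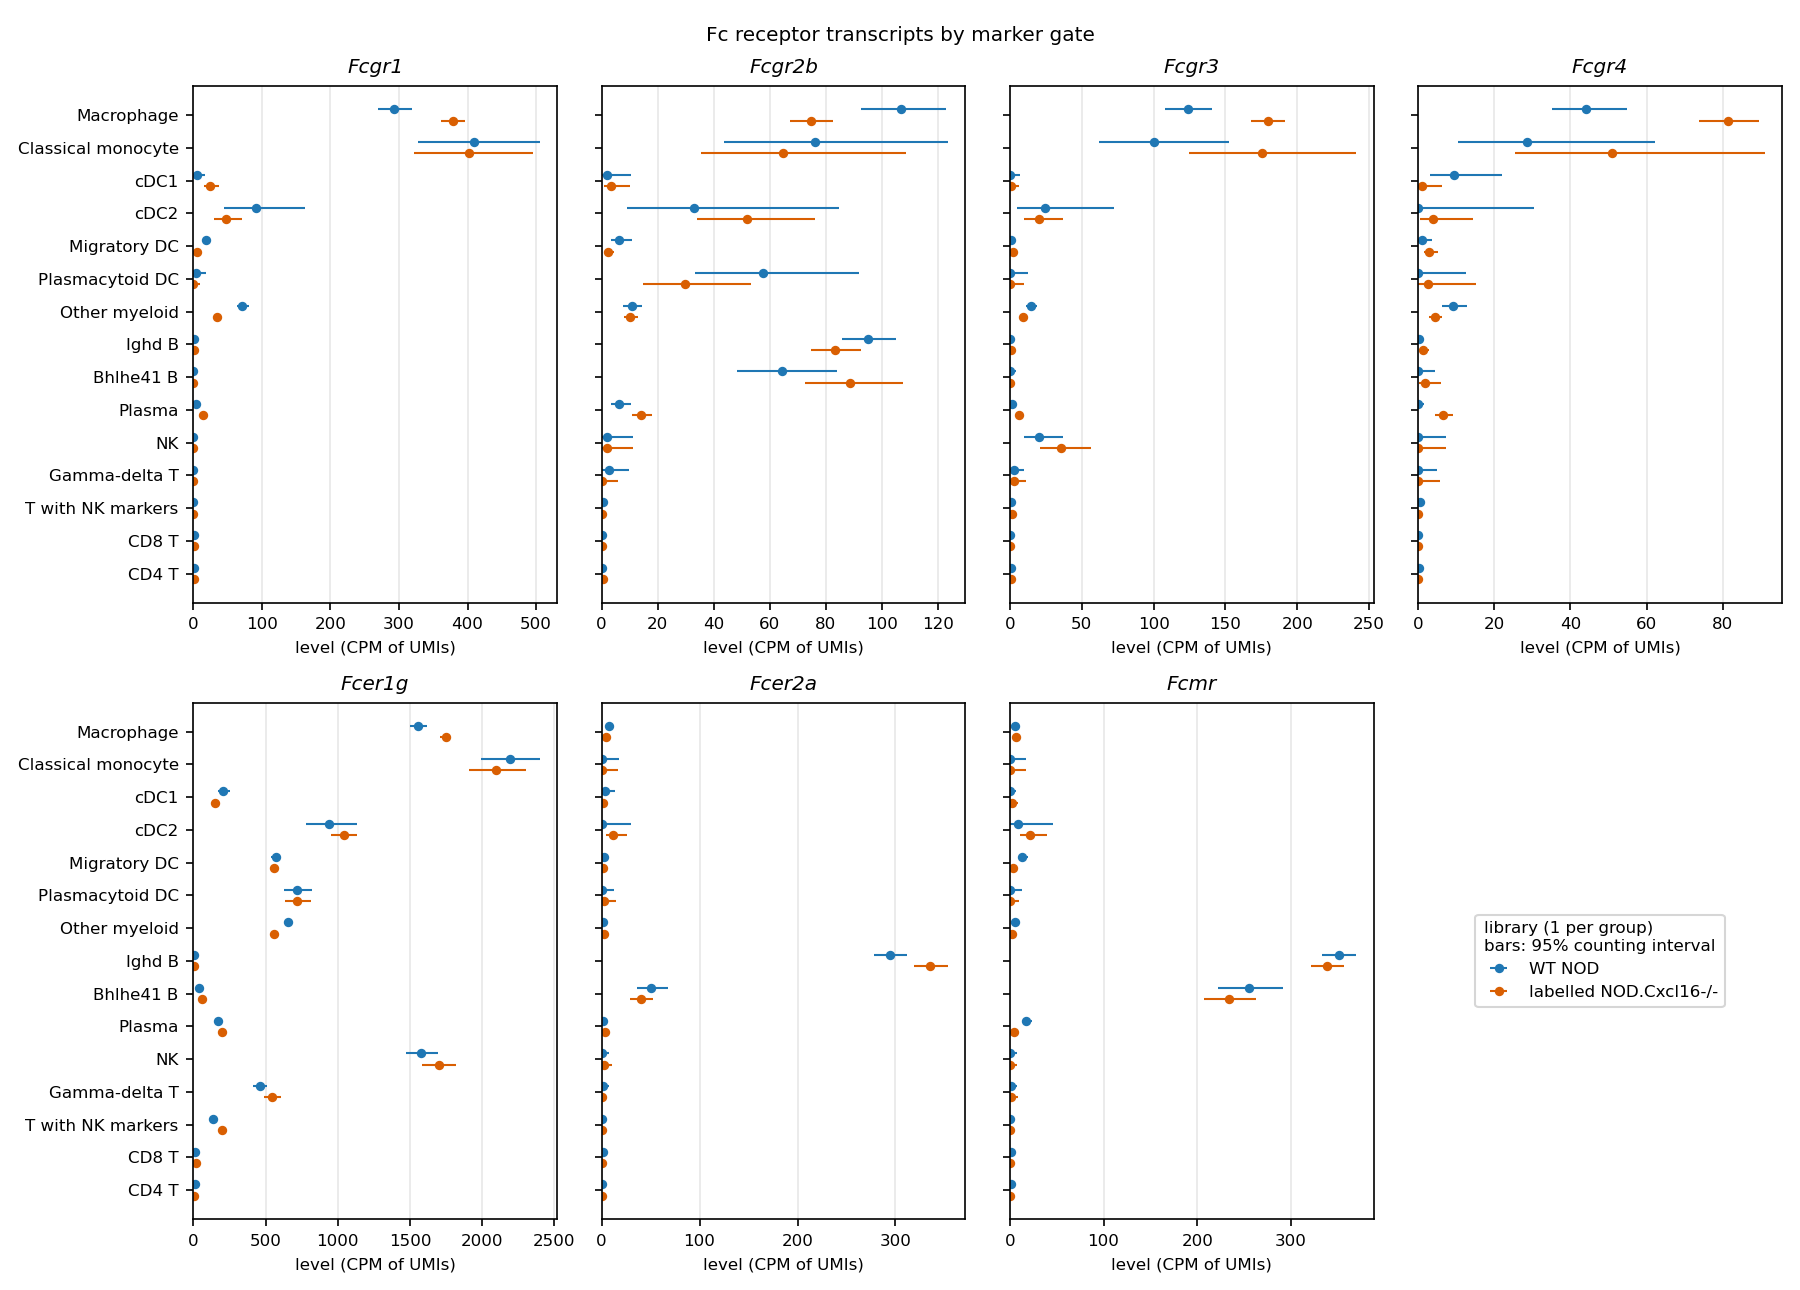
Level of each Fc receptor gene, in CPM, in 15 marker gates of both libraries (points, with 95% counting intervals). Fcgr1, Fcgr3 and Fcgr4 were highest in the macrophage and classical monocyte gates (293 and 379 CPM of Fcgr1 in macrophages), Fcer1g was also high in NK-gated cells, and Fcer2a and Fcmr were high in the Ighd B gate.

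In macrophage-gated cells (114 and 310 cells, gated by C1qa, C1qb, C1qc and Adgre1), the high-affinity receptor gene Fcgr1 was at 293 CPM (269 to 319) in WT NOD. It was at 379 CPM (362 to 396) in the same gate of the library labelled NOD.Cxcl16-/-. Classical monocyte-gated cells (18 and 19 cells) had 409 and 402 CPM. This small gate was not alike in the libraries: T-cell markers summed to 424 CPM in WT NOD and 46.2 CPM in the other. B-cell markers went the other way (33.3 and 139 CPM), and myeloid markers were at 9009 and 14430 CPM. Within a library, the macrophage level was 0.716 times the monocyte level in WT NOD (0.569 to 0.910) and 0.942 times in the other (0.760 to 1.18), so the 2 gates differed beyond counting error in WT NOD and could not be ordered in the other library. A nonclassical monocyte gate held 3 and 1 cells, with 2 and 0 UMIs of Fcgr1 and 7 and 0 of Fcgr3, and is left out of the order of gates given here. The next gates were cDC2 (91.0 and 48.0 CPM, 11 and 37 cells) and the myeloid cells in no subset (71.6 and 35.2 CPM). Migratory dendritic cells, gated by Ccr7 and Fscn1 among others, had 19.2 and 4.79 CPM, and in WT NOD 14 of their 39 UMIs came from 1 cell. Plasmacytoid dendritic cells, NK- and gamma-delta T-gated cells had at most 1 UMI of Fcgr1 per library.

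Fcgr3, the low-affinity activating receptor, had the same leading gates among those with at least 10 cells per library. It was at 124 CPM (108 to 141) and 179 CPM (168 to 191) in macrophage-gated cells and at 99.95 and 176 CPM in monocyte-gated cells. These 2 gates did not differ beyond counting error in either library. Fcgr4, an activating receptor of myeloid cells, was at 44.1 CPM (35.1 to 54.7) and 81.4 CPM (73.7 to 89.6) in macrophage-gated cells and at 28.6 and 50.8 CPM, from 6 and 11 UMIs, in monocyte-gated cells. The macrophage to monocyte ratio of Fcgr4 was 1.54 (0.680 to 4.33) and 1.60 (0.885 to 3.23), which does not set an order.

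Fcgr2b, the inhibitory receptor, was at 107 CPM (92.7 to 123) in WT NOD macrophage-gated cells and 74.7 CPM (67.4 to 82.6) in the other library. Of the 4 IgG receptor genes it was the one whose level was lower in the macrophages of the library labelled NOD.Cxcl16-/- while Fcgr1, Fcgr3 and Fcgr4 were higher. B-gated cells had 89.7 and 81.2 CPM, which is 0.838 times the macrophage level in WT NOD (0.715 to 0.986) and 1.09 times in the other (0.962 to 1.23). Plasmacytoid dendritic cells, the interferon producers gated by Siglech, Ccr9, Klk1 and Cox6a2, had 57.5 and 29.8 CPM of Fcgr2b, from 17 and 11 UMIs in 36 and 35 cells. In the same cells the 3 activating receptor genes together had 1 UMI in each library.

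Deeper libraries show more genes per cell, so shares of cells with a UMI were also taken after thinning each cell to 2000 UMIs, which left out 13 of 114 and 22 of 310 macrophage-gated cells. Fcgr1 was then found in 46.5% and 48.3% of macrophage-gated cells, against 77.2% and 83.9% before thinning. Fcgr3 was found in 25.7% and 30.2%, Fcgr2b in 19.8% and 16.0%, and Fcgr4 in 9.90% and 17.7% of the thinned cells. Before thinning these shares were 60.5% and 72.9%, 46.5% and 47.1%, and 34.2% and 46.5%. For T-gated cells, in which these transcripts serve as a measure of free RNA, the thinned shares of the 4 genes lay between 0% and 0.193%, at median depths of 4271.5 and 4756 UMIs before thinning against 12883.5 and 13069 in macrophage-gated cells. Before thinning, the 10% of macrophage-gated cells with the most held 35.6% and 32.3% of the Fcgr1 UMIs, and 56.1% and 56.6% of the Fcgr4 UMIs. For Fcer1g this share was 33.0% and 28.7%. Unequal depth and low counts raise such a share by themselves, so it does not show an uneven spread. At equal depth, 34.7% of WT NOD and 28.8% of the other macrophage-gated cells had none of the 4 genes, and 1 and 2 cells had all 4.

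**Figure D2:**
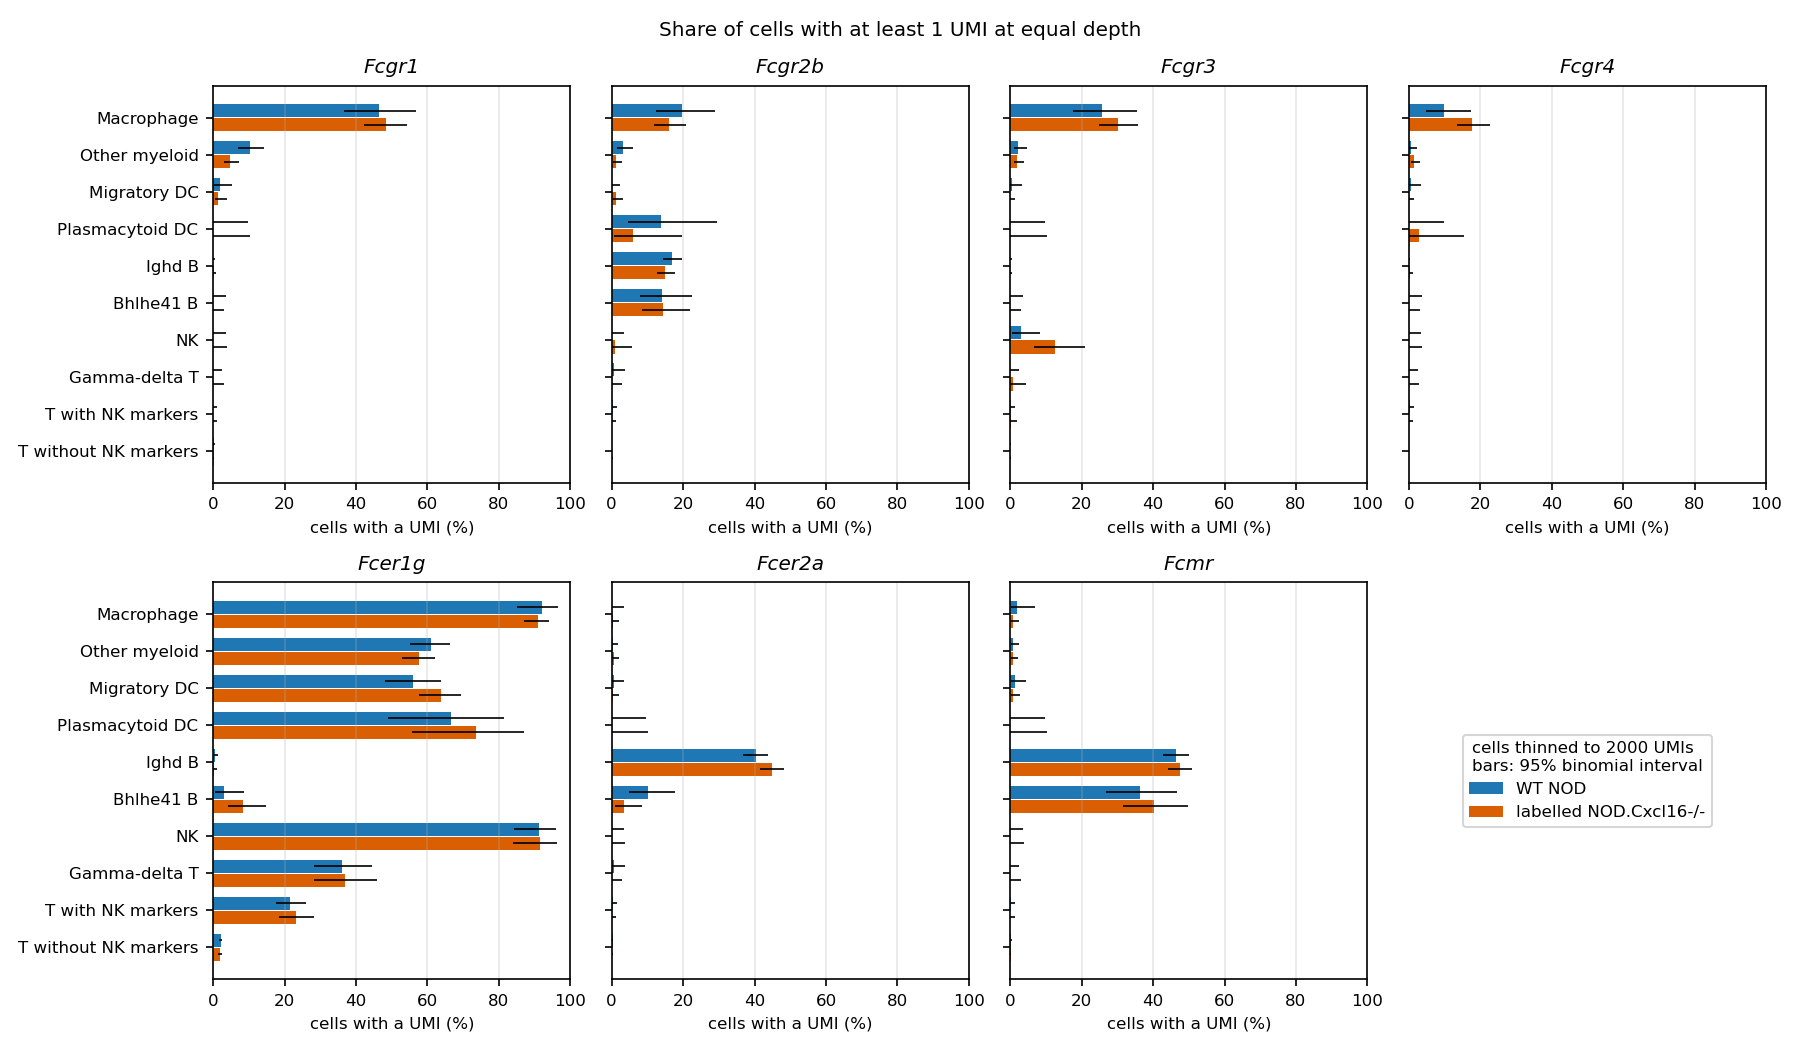
Share of cells with at least 1 UMI of each gene after thinning every cell to 2000 UMIs, in 10 gates (bars, with 95% exact binomial intervals for counting error). Fcer1g was found in 92.1% and 91.0% of macrophage-gated cells, in 91.4% and 91.6% of NK-gated cells, and in 2.06% and 1.88% of T-gated cells without NK markers.

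The balance of activating and inhibitory transcripts was read as UMIs of Fcgr1, Fcgr3 and Fcgr4 per UMI of Fcgr2b. It is a ratio of 3' tags and is compared between gates and between libraries, and its absolute size is not read, since tags of different genes are not captured alike. In macrophage-gated cells it was 4.31 in WT NOD (857 against 199 UMIs, interval 3.69 to 5.05) and 8.56 in the library labelled NOD.Cxcl16-/- (3262 against 381 UMIs, 7.70 to 9.55). The ratio of the 2 was 1.99 (1.64 to 2.41, exact conditional 95% interval for counting error). Classical monocyte-gated cells had 7.06 and 9.71, a ratio of 1.38 (0.599 to 3.18), and in migratory dendritic cells the ratio of the libraries was 1.31 (0.455 to 3.88), so neither gate set a direction.

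Myeloid cells in no subset went the other way, with 8.90 in WT NOD (6.44 to 12.6) and 4.80 in the other library (3.66 to 6.37). This gate had UMIs of Fcgr1 in 74 of 464 and 70 of 483 cells (274 and 224 UMIs). It had Fcgr2b in 26 and 34 cells, Fcgr3 in 23 and 32, and Fcgr4 in 24 and 22. Its median depth was 5978.5 UMIs in WT NOD and 12305 in the other library. Plasmacytoid dendritic cells (0.0588 and 0.0909) and B-gated cells (0.0154 and 0.0322) were far on the inhibitory side.

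**Figure D3:**
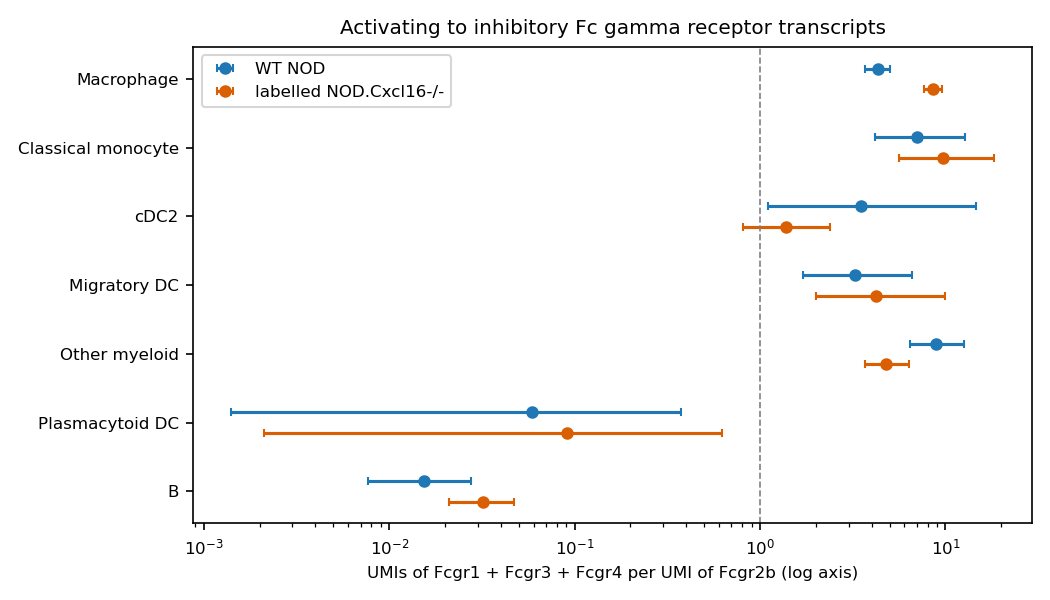
UMIs of Fcgr1, Fcgr3 and Fcgr4 per UMI of Fcgr2b by gate, on a log axis, with 95% counting intervals. The dashed line marks equal UMIs. The macrophage intervals of the libraries (4.31 and 8.56) do not overlap, and plasmacytoid dendritic and B-gated cells lie below 1 in both.

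Between the libraries, a gene with at least 20 UMIs in a gate was called when log2 of (CPM + 1) differed by 1.5-fold or more. A log2 ratio is that of the library labelled NOD.Cxcl16-/- over WT NOD. Its interval is that of the ratio of CPM with nothing added. For low genes the interval is therefore not centred on the value given and can leave it out. In all myeloid-gated cells, 2 of the 7 members were higher and none lower, where 3.89% of 13073 genes were higher, 3.15% lower and 7.04% either. The 2 were Fcgr3 (35.8 and 60.1 CPM, log2 ratio 0.73, interval 0.57 to 0.94) and Fcgr4 (14.6 and 27.3 CPM, 0.86, 0.62 to 1.19). The median log2 ratio of the 7 members was 0.14, and that of all genes tested 0.00. Macrophage-gated cells were 13.4% of the myeloid gate in WT NOD and 26.0% in the other library, so the sum over the gate and the level within a subset have to be read apart. In a joint clustering, 669 of 851 and 1169 of 1192 myeloid-gated cells lay in clusters with a myeloid majority. For macrophage-gated cells these were 111 of 114 and 308 of 310. The share of macrophages thus also depends on WT NOD cells that did not cluster as myeloid. The comparison in myeloid cells of no subset was not repeated without them.

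Within macrophage-gated cells, 1 of 7 members was higher and 1 lower, where 8.87% of 10600 genes were higher, 6.84% lower and 15.7% either. The higher one was Fcgr4 (log2 ratio 0.87, 0.54 to 1.24). The lower one was Fcer2a (7.53 and 4.12 CPM, from 14 and 21 UMIs, log2 ratio -0.74), a B-cell transcript whose interval, -1.91 to 0.22, includes no change and whose direction turned after thinning to 2000 UMIs per cell (1.45). Fcgr3 (0.53, 0.33 to 0.75), Fcgr1 (0.37, 0.23 to 0.51) and Fcgr2b (-0.51, -0.77 to -0.26) stayed within 1.5-fold with intervals that leave out 0. Fcer1g differed little (1557 and 1747 CPM, 0.17). Markers of other cell types were also in this gate: T-cell markers summed to 721 and 606 CPM, B-cell markers to 166 and 113 CPM and islet hormone genes to 4770 and 5935 CPM, while mast cell or basophil markers were at 0 in both. In the 57 and 152 macrophage-gated cells with no T-cell marker UMI, chosen after the data were seen, the activating to inhibitory ratio was 3.85 and 10.7, and the log2 ratio of Fcgr4 was 1.22, of Fcgr1 0.62 and of Fcgr2b -0.83. The part of islet hormone RNA in these differences was not tested.

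The other myeloid gates did not move as one. In the myeloid cells of no subset, 3 of 7 members were lower in the library labelled NOD.Cxcl16-/- and none higher, where 6.47% of genes were higher, 4.08% lower and 10.6% either. They were Fcgr1 (71.6 and 35.2 CPM, log2 ratio -1.002, -1.28 to -0.76), Fcgr4 (9.15 and 4.41 CPM, -0.91, -1.83 to -0.30) and Fcmr (6.01 and 2.20 CPM, -1.13). In migratory dendritic cells 3 of 4 measured members were lower, where 7.48% of genes were higher, 6.88% lower and 14.4% either. They were Fcgr1 (-1.80), Fcgr2b (13 and 9 UMIs, -1.12) and Fcmr (27 and 14 UMIs, -1.59). Fcer1g stayed within 1.5-fold in each of these gates (-0.23 and -0.03).

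Among the smaller myeloid gates, Fcgr3 was called higher in classical monocytes (21 and 38 UMIs, log2 ratio 0.81, 0.01 to 1.66), the direction it had in macrophages, where 17.5% of genes were higher, 15.3% lower and 32.8% either. Fcgr1 was called higher in cDC1 (3 and 22 UMIs, 1.97, 0.41 to 4.53), where 19.4% were higher, 9.5% lower and 28.9% either. In cDC2, Fcgr1 was called lower (11 and 24 UMIs, -0.91) and Fcgr2b higher (4 and 26 UMIs, 0.64), where 23.8% were higher, 13.1% lower and 36.9% either. Fcgr2b was called lower in plasmacytoid dendritic cells (17 and 11 UMIs, -0.92), where 13.9% were higher, 12.9% lower and 26.8% either. The intervals of the 2 cDC2 values and of the plasmacytoid value include 0.

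**Figure D4:**
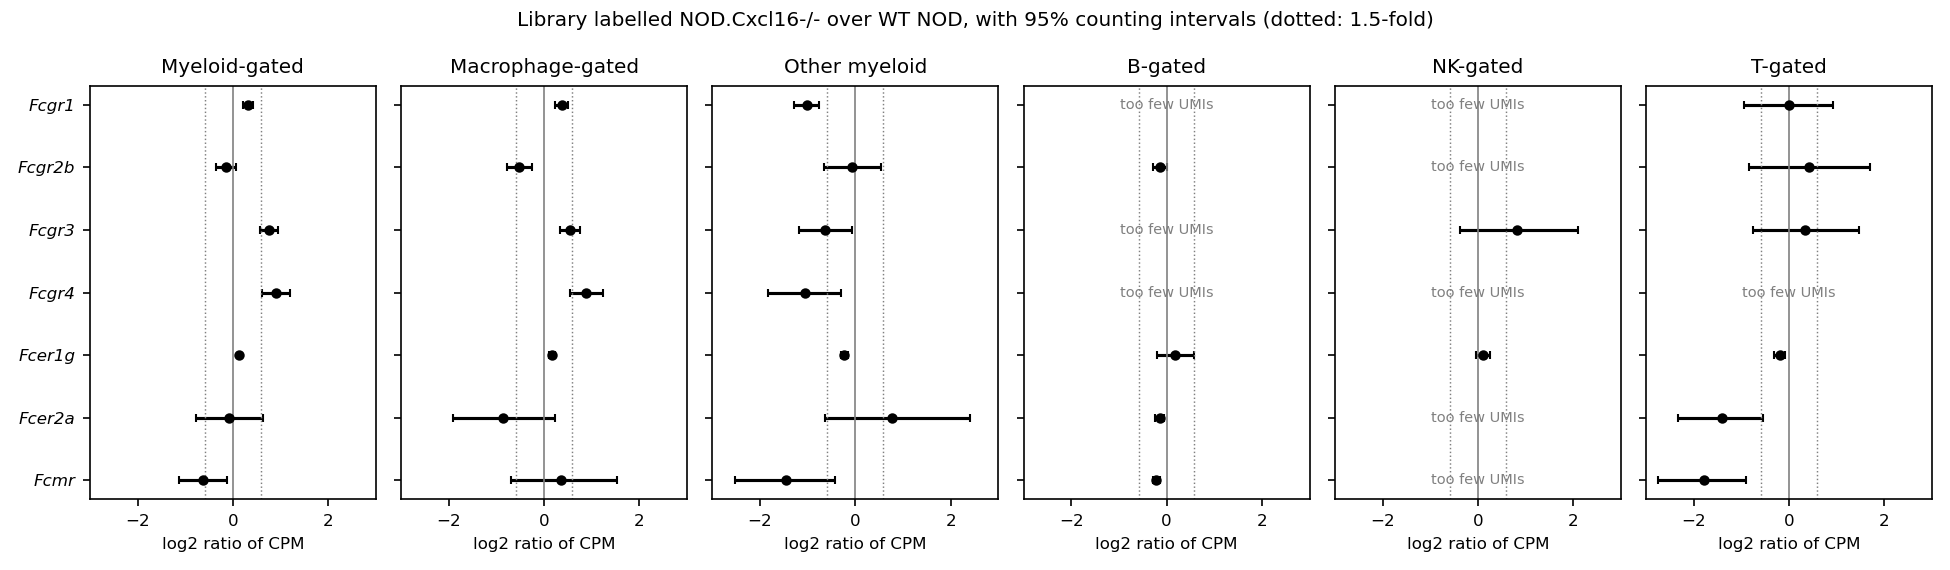
Log2 ratio of CPM of each member, library labelled NOD.Cxcl16-/- over WT NOD, in 6 gates, with 95% counting intervals and dotted lines at 1.5-fold. Points here carry no added CPM, so low genes lie farther from 0 than the log2 of (CPM + 1) given in the text. Fcgr4 is to the right in macrophages (1.85-fold) and to the left in myeloid cells of no subset (0.482-fold).

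The genes that carry the signal of these receptors were read from lists. In macrophage-gated cells 3 of 18 ITAM signalling genes were higher and none lower, with a median log2 ratio of 0.17, where 8.87% of all genes of the gate were higher, 6.84% lower and 15.7% either. These were Vav3 (35.5 and 69.2 CPM, 0.94), the adaptor Blnk (52.7 and 94.3 CPM, 0.83) and the docking protein Gab2 (114 and 186 CPM, 0.71). Syk, the kinase that binds the ITAM of the gamma chain, was at 137 and 141 CPM (0.04). None of 8 inhibitory signalling genes was called (median 0.12). Inpp5d, the SHIP1 phosphatase recruited by CD32B, was at 125 and 141 CPM (0.18).

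Of 6 receptors that pair with the gamma chain, 4 were measured in macrophages. The paired immunoglobulin-like receptor gene Pira2 was lower (55.4 and 33.9 CPM, -0.69). Ncr1 was higher on 2 and 31 UMIs, and it is an NK marker. The C-type lectin gene Clec4e stayed within 1.5-fold (97.3 and 79.6 CPM, -0.29). Tyrobp, which encodes DAP12, an ITAM adaptor like the gamma chain, was at 1600 and 1703 CPM (0.09). Of 5 immunoglobulin heavy chain constant genes measured in this gate, Ighm was higher (0.64) and Ighd (-1.34) and Igha (-0.79) lower, against 8.87% of all genes of the gate higher and 6.84% lower.

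Fcer1g was the only member whose CPM in NK-gated cells was in the range of macrophages. NK-gated cells (115 and 99 cells, with Ncr1, Klre1, Klri2 or Klrb1c and no Cd3e or Trac UMI) had 1578 CPM (1470 to 1693) in WT NOD and 1698 CPM (1586 to 1816) in the other library, which is 1.01 (0.936 to 1.10) and 0.972 (0.905 to 1.04) times the macrophage level. A UMI was found in 96.5% and 98.99% of NK-gated cells, and in 91.4% and 91.6% after thinning, which left out 11 and 4 of them. The gate held 9 and 18 UMIs in all of 6 myeloid genes used to follow free RNA (Aif1, Ms4a6c, Lst1, Plbd1, Cybb and Cfp), so Fcer1g stood at 8689 and 4739 UMIs per 100 of them, against 31.9 and 36.5 in myeloid-gated cells. Its partner receptor gene in NK cells, Fcgr3, was at 20.2 CPM (10 UMIs in 10 cells) and 35.8 CPM (18 UMIs in 16 cells), or 8.70% and 16.2% of cells, and 2.89% and 12.6% of thinned cells. T-gated cells had Fcgr3 in 0.0856% and 0.0904% of thinned cells. Fcgr1 and Fcgr4 had 0 UMIs in NK-gated cells of both libraries. In the comparison of the libraries, Fcgr3 was 1 of 2 measured members and was called higher (log2 ratio 0.80), where 9.82% of 5793 genes were higher, 8.56% lower and 18.4% either, with an interval of -0.36 to 2.11, and after thinning it had too few UMIs to be measured.

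Among T-gated cells, Fcer1g was highest in the gates with innate-like markers. Gamma-delta T-gated cells (156 and 126 cells, with Trdc and no Trac UMI) had 459 and 545 CPM, and T-gated cells with at least 3 UMIs of NK markers (382 and 304 cells) had 134 and 202 CPM. T-gated cells without NK markers (4494 and 3944 cells) had 17.1 and 9.96 CPM. The gamma-delta level was 26.8 times (23.1 to 31.01) and 54.8 times (46.4 to 64.8) that of T-gated cells without NK markers. The gamma-delta gate did not leave out cells with NK markers, which summed to 420 and 260 CPM in it. All T-gated cells together had Fcer1g at 43.2 and 37.7 CPM, so these ratios depend on the reference gate. A UMI was found in 42.3% and 44.4% of gamma-delta cells, or 36.1% and 36.8% of thinned ones. Cd3e was at 773 and 687 CPM in the gamma-delta gate and at 0 UMIs in the NK gate. Both are fixed by the gates: a gamma-delta-gated cell needed a Cd3e UMI, and an NK-gated cell none.

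The low level in other T-gated cells was set against free RNA. Ighd B-gated cells, which should lack the gamma chain, had Fcer1g at 2.69 and 4.29 CPM, 0.498% and 0.361% of thinned cells, at median depths of 4637 and 4615.5 UMIs. T-gated cells without NK markers had it in 2.06% and 1.88% of thinned cells, at median depths of 4030.5 and 4551.5. CD8 T-gated cells had Fcer1g at 9.94 CPM (8.42 to 11.7) in WT NOD and 17.5 CPM (15.2 to 20.1) in the other library, and it was called higher (log2 ratio 0.76, 0.51 to 1.13), where 2.9% of genes were higher, 1.84% lower and 4.73% either. CD4 T-gated cells had it at 13.2 CPM (10.6 to 16.2) and 8.31 CPM (6.45 to 10.5), and it was called lower (-0.61, -1.14 to -0.19), where 2.18% were higher, 3.26% lower and 5.44% either. The CPM intervals of CD8 and CD4 cells overlapped in WT NOD and were separate in the library labelled NOD.Cxcl16-/-. At equal depth a UMI was found in 1.70% (1.14 to 2.43) and 2.13% (1.42 to 3.07) of CD8 cells. For CD4 cells it was 1.91% (1.19 to 2.91) and 1.24% (0.697 to 2.04). These shares overlapped between the gates and between the libraries. Single CD8 cells held up to 12 and 16 UMIs, and the CD8 gate did not leave out cells with NK markers. Per 100 UMIs of the 6 myeloid genes, Fcer1g reached 1270 and 2293 in gamma-delta T-gated cells and 19.3 and 11.3 in T-gated cells without NK markers, against 31.9 and 36.5 in myeloid-gated cells. In all T-gated cells, Ms4a6c alone gave 1334 and 1468 of the 2482 and 2512 UMIs of the 6 genes. Cybb was at 289 and 267 CPM in B-gated cells, against 299.5 and 348 CPM in myeloid-gated cells. How much of these UMIs in lymphocytes was free RNA was not tested, so the T-cell value sets no level of free RNA. Regulatory T-gated cells had 5 and 16 UMIs.

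The 2 receptors of B cells behaved differently over the B gates. In Ighd B-gated cells (829 and 836 cells, Ighd positive without Bhlhe41, Zbtb32 or germinal centre markers), Fcer2a was at 294.5 CPM (278 to 312) in WT NOD and 336 CPM (318 to 354) in the other library. In Bhlhe41 B-gated cells (100 and 119 cells) it was at 50.02 and 39.8 CPM, so the Ighd level was 5.89 times (4.33 to 8.21) and 8.44 times (6.31 to 11.5) higher. Fcmr fell off less: it was at 351 and 339 CPM in Ighd B-gated cells and at 255 and 234 CPM in Bhlhe41 B-gated cells, a ratio of 1.38 (1.19 to 1.60) and 1.45 (1.28 to 1.66). Fcgr2b was at 95.2 and 83.5 CPM against 64.3 and 88.9 CPM, a ratio of 1.48 (1.11 to 2.01) in WT NOD and of 0.939 (0.753 to 1.18) in the other library, which sets no order there. Bhlhe41 and Zbtb32 are transcription factor genes known in B-1 and memory-type B cells.

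After thinning, 161 of 804 and 193 of 832 Ighd B-gated cells had UMIs of both Fcer2a and Fcmr. Germinal centre B-gated cells were 4 and 47 cells. In those 47 cells, Fcer2a was at 29.4 CPM, Fcmr at 66.6 CPM and Fcgr2b at 40.2 CPM, each below its level in the Ighd gate of that library. The thinned shares were also lower for Fcer2a (8.51% against 44.8% of Ighd B-gated cells) and Fcmr (19.15% against 47.5%). For Fcgr2b they were 14.9% (6.20 to 28.3) against 15.0%, so its share of cells was not lower at equal depth. Fcer1g was at 39.3 and 62.6 CPM in Bhlhe41 B-gated cells, 14.6 times the Ighd gate in both libraries (7.20 to 32.0 and 8.63 to 26.0), but 17 of the 33 and 36 of the 74 UMIs came from 1 cell each.

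Over all B-gated cells (1583 and 1791), none of the 4 measured members was called between the libraries, where 5.3% of 11423 genes were higher, 2.46% lower and 7.76% either. Fcer2a was at 241 and 218 CPM (log2 ratio -0.14), Fcmr at 320.0 and 276 CPM (-0.22), Fcgr2b at 89.7 and 81.2 CPM (-0.14) and Fcer1g at 12.3 and 13.9 CPM (0.17). Among the other immunoglobulin receptors of B cells, Fcrl1 (190 and 166 CPM), Fcrl5 (35.6 and 36.4 CPM) and Fcrla (220 and 209 CPM) were within 1.5-fold. So were the complement receptor gene Cr2 (77.02 and 66.1 CPM) and Adam10, the gene of the protease that sheds CD23 (62.1 and 59.2 CPM). The IgG constant genes Ighg2b (104 and 176 CPM, 0.76), Ighg2c (15.9 and 29.0 CPM, 0.83) and Ighg3 (7.03 and 11.9 CPM, 0.68) were higher, 3 of 7 measured constant genes. Hcst, the DAP10 adaptor gene, was lower (43.8 and 28.4 CPM, -0.61).

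Plasma-gated cells (195 and 158 cells) carried Fcer1g at 173 and 197 CPM, in 20.9% and 28.1% of thinned cells. Between the libraries 5 of the 7 members were called higher and 1 lower in this gate, where 16.7% of genes were higher, 5.37% lower and 22.1% either. Fcmr was the lower one (17.6 and 4.45 CPM). Fcgr1 was at 3.36 and 14.7 CPM, and its 8 UMIs in WT NOD were all in 1 cell. Fcgr2b was at 6.30 and 14.0 CPM, with 20 of its 63 UMIs in the library labelled NOD.Cxcl16-/- from 1 cell. Fcgr3 had 4 and 28 UMIs, the 4 all in 1 cell. Fcer2a had 4 and 16 UMIs, 10 of the 16 from 1 cell, and its interval (-0.55 to 3.12) includes 0. Fcgr4 had 0 and 29 UMIs (log2 ratio 2.90). The counting interval of its ratio started at 1.96 on the log2 scale and had no upper end. Of the 6 myeloid genes used to follow free RNA, 5 were higher too, with a median log2 ratio of 1.59. The gate differed in depth (median 3741 and 27366 UMIs) and in its summed myeloid markers (725 and 1326 CPM), whose part in these values was not tested.

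In T-gated cells 2 of 6 measured members were lower and none higher in the library labelled NOD.Cxcl16-/-, where 1.37% of 13888 genes were higher, 1.23% lower and 2.6% either. They were the B-cell genes Fcer2a (44 and 16 UMIs, 1.35 and 0.512 CPM, log2 ratio -0.64) and Fcmr (50 and 14 UMIs, 1.53 and 0.448 CPM, -0.81). They were found in 0.604% and 0.347% (Fcer2a) and 0.861% and 0.282% (Fcmr) of T-gated cells, and B-cell markers in this gate summed to 14.0 and 11.5 CPM. With 10 CPM added in place of 1, neither was called. The IgE receptor genes Fcer1a and Ms4a2 of mast cells and basophils had 0 UMIs in macrophage-gated cells.

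The profile of each member over 17 gates of both libraries (34 points, which share library and depth) was compared with those of 12079 genes by Pearson's r of log2 (CPM + 1). The most alike to Fcgr1 were Dpys (0.97), Ms4a6d (0.95) and Clec5a (0.95). To Fcgr3 they were Tnfsf13 (0.92), Clec4e (0.89) and Tnfsf12 (0.87), and to Fcgr4 Slc11a1 (0.93), Il1a (0.92) and Cxcl14 (0.91). Fcgr2b, with its levels in both B and myeloid gates, was closest to Cyp4f18 (0.94), C130026I21Rik (0.85) and B3gnt8 (0.85).

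Fcer1g was closest to Tyrobp (0.94), Tnfsf12 (0.88) and Lrmda (0.87). Among the 3 most alike to Fcer2a were Cr2 (0.92) and Cd22 (0.92), and among the 3 most alike to Fcmr were Bank1 (0.92) and Cd79a (0.91). Cd79a was used to gate B cells. Among the members, Fcer2a and Fcmr were at r = 0.88, Fcgr1 and Fcgr4 at 0.83, Fcgr1 and Fcgr3 at 0.79, and Fcgr1 and Fcgr2b at 0.54.

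The transcripts of Fcgr2b and Fcgr3 share sequence, and reads from such stretches could be split or dropped in counting. Of 1627 stretches of 31 bases in the annotated coding transcripts of Fcgr3, 233 also occurred in those of Fcgr2b. The last 500 bases of the one and of the other shared none, but 76 of the 1489 stretches at these ends of Fcgr2b occurred elsewhere in Fcgr3, and 5 of the 960 of Fcgr3 elsewhere in Fcgr2b. Fcgr1 and Fcgr4 shared no such stretch with the other IgG receptor genes.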

How the data were processed

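Library construction used 10x Genomics 3' reagents, per the labels' protocols. The deposited matrices hold UMI counts per gene and barcode. They were made with Cell Ranger 7.0.1 on mm10, per the submitters' processing notes, and the annotation is not given in the sources used here. The lowest barcode held 500 UMIs.

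Barcodes with at least 500 genes and at most 10% mitochondrial UMIs were kept. Doublets were scored with Scrublet (scanpy 1.11.5) and the top 0.8% per 1000 barcodes were removed, 1537 in WT NOD and 891 in the library labelled NOD.Cxcl16-/-. Each lineage gate needed at least 3 own marker UMIs. B and myeloid gates needed 80% of all lineage-marker UMIs, and the T gate 80% with NK markers not counted, plus Cd3e or Trac. The plasma gate needed more plasma than B markers, and 80% from both together. The NK gate had no such 80% rule. It needed more NK markers than B, plasma and myeloid markers together, and 0 UMIs of Cd3e and Trac. T-cell markers still summed to 555 and 607 CPM in it. A myeloid subset needed 3 UMIs of 2 markers and 60% of subset-marker UMIs. No gate held 23.25% and 15.28% of kept cells, with median UMIs of 1691 and 4052. UMIs were summed per gate and scaled to CPM, with 1 CPM added before log2 but not for the intervals. Exact Poisson, Clopper-Pearson and conditional intervals at 95% cover counting error only. With 1 library per group no test was run. Cells were thinned to 2000 UMIs without replacement. The ratio and thinning steps were tested on simulated data.

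Positions are from GENCODE vM21 (GRCm38), the assembly of mm10, and promoter windows from RefSeq, where all 7 members matched by symbol. The named genes are the members, up to 4 genes per list with the greatest change past 1.5-fold, direct partners of a member, and the 3 most alike genes among those with at least 50 UMIs in gated cells of each library. One of the alike genes of Fcer2a and Fcmr is not reported here. The members and lists were chosen with earlier results of these data known. Alternatives covered scaling, thinning, doublets, gates and filters.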

Additional observations from a re-analysis of the deposited data

How the results depend on the processing

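Fcgr4 was called higher in macrophage-gated cells under all 11 alternatives (log2 ratio 0.60 to 1.22). The activating to inhibitory ratio was computed under 8, since a rescaling of the whole gate, an added CPM or a minimum of UMIs do not enter it. It lay between 3.85 and 4.81 in WT NOD and between 7.58 and 10.7 in the library labelled NOD.Cxcl16-/-. The latter was 7.58 with markers of other lineages not used, 9.97 with the mean of each cell's CPM and 10.7 in macrophage-gated cells with no T-cell marker UMI. All 3 were chosen for this ratio after the data were seen. So were at least 200 genes per cell (8.57) and agreement of gate and cluster (8.59). Fcgr2b was lower in macrophages in all 11 (-0.98 to -0.28) and past 1.5-fold in 3 of them. Thinning to 2000 UMIs left 1 member called in myeloid-gated cells, 0 in NK-gated and 1 in T-gated cells, called Fcgr2b and Fcgr4 in macrophages in place of Fcer2a and Fcgr4, and turned Fcer2a in macrophages to 1.45 on the log2 scale. Fcgr3 in myeloid-gated cells was also within 1.5-fold with doublets kept (0.58), where Fcgr4 and Fcmr were called. The mean of each cell's CPM added Fcmr to the myeloid calls and markers of other lineages not used added Fcgr1, giving 3 members in each. In macrophages, 1 member was called with doublets kept, with markers of other lineages not used and with 10 CPM added. Markers of other lineages not used also gave 3 members in B-gated, 5 in NK-gated and 6 in T-gated cells, in gates that then held cells with myeloid markers by construction. In T-gated cells, 6 own marker UMIs left 1 member and 10 CPM added left 0. In NK-gated cells, no minimum of UMIs gave 2. Over all genes of the macrophage gate the share past 1.5-fold ran from 3.92% with 10 CPM added to 32.0% with the mean of each cell's CPM, against 15.7%.

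Agreement of gate and cluster could not be run for NK-gated cells, since 0 of 214 lay in a cluster with an NK majority. No paired analysis was possible because each group had 1 library, and leaving out a library was not possible for the same reason. The T-gate calls rest on 16 and 14 UMIs in the library labelled NOD.Cxcl16-/-.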
